A study of Mus musculus with 8 samples.

Results

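The genes described here are 37 targets and components of the NRF2 and glutathione system, the main defence of a cell against electrophiles and oxidants. They were chosen by gene symbol, and all 37 were found among the 45777 genes counted and kept by the filter on low counts. They were read in 8 RNA-seq libraries, each of a whole mouse organoid culture (epithelium grown in 3 dimensions), that the labels call hepatocellular carcinoma related to metabolic dysfunction-associated steatohepatitis. The parental group holds untreated organoids of 4 lines with 1 library each, SNU-6621 and SNU-6622, which have no other library here, and SNU-6624 and SNU-6625. The lenvatinib group holds SNU-6624 and SNU-6625 treated with lenvatinib, a kinase inhibitor used against liver cancer, with 1 library each. The resistant group holds cultures of SNU-6624 and SNU-6625 that the labels name lenvatinib-resistant, with 1 library each and the label control for treatment. Every library is labelled genotype WT. The labels used here give no strain, age, dose or duration, and each state of a line is a single culture. The series also names multi-biotics, a treatment that the cell type labels of these 8 libraries do not name. Values below follow the line numbers, so that 4 parental values are in ascending order of line and a pair of values is SNU-6624 and then SNU-6625.

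NRF2, encoded by Nfe2l2, is a transcription factor that is made and destroyed continuously: KEAP1 holds it in the cytoplasm and directs its ubiquitination. Electrophiles and oxidants modify cysteines of KEAP1, and NRF2 then accumulates in the nucleus, pairs with small MAF proteins and binds antioxidant response elements near its target genes. These targets import cystine and make glutathione, reduce thioredoxin, supply NADPH, conjugate electrophiles to glutathione and break down heme. In liver they also serve drug detoxification, and hepatocellular carcinomas can carry mutations that keep NRF2 active.

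Promoter windows are shown for Taldo1, which was called after lenvatinib as described below, and for 4 genes that had at least 2-fold higher levels after lenvatinib in both lines and hold the core of the antioxidant response element, TGACNNNGC. The windows are the 250 bases before a start listed for the gene, on the gene's strand in build GRCm38.p6. RefSeq windows were matched for 32 of the 37 genes, 39 windows in all. None was matched for Hmox1, Gclc, Gsr, Gsta4 and Prdx6, whose promoters were thus not searched. Txnrd1 has 3 windows, of which 1 holds the core and is shown, and Taldo1, G6pdx, Gclm and Gsta3 have 1 each. Capitals mark the core, printed as its reverse complement where it lies on the opposite strand.
Taldo1 (chr7:141391910-141392159, + strand): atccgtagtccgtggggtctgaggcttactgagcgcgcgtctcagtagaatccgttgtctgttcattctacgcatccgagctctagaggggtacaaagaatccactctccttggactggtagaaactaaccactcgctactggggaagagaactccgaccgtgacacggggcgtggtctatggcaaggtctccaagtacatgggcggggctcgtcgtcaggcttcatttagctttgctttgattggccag
Txnrd1 (chr10:82858956-82859205, + strand): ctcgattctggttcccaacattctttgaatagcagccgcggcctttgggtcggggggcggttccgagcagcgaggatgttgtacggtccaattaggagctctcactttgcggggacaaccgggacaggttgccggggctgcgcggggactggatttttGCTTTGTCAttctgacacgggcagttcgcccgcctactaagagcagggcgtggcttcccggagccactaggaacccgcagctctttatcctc
G6pdx (chrX:74428881-74429130, − strand): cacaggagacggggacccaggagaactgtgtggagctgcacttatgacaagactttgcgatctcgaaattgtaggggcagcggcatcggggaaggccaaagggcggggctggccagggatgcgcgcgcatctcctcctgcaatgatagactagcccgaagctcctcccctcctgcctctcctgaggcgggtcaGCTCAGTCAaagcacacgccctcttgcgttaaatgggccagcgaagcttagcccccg
Gclm (chr3:122245307-122245556, + strand): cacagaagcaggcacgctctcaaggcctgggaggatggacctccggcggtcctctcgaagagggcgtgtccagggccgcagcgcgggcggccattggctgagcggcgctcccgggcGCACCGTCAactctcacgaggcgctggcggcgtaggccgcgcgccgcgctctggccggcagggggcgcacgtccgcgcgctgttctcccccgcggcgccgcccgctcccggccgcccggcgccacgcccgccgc
Gsta3 (chr1:21240335-21240584, + strand): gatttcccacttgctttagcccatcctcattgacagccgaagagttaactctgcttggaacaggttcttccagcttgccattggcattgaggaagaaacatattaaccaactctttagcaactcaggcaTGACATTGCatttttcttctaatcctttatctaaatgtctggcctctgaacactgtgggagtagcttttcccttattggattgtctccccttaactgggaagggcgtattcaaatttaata
The site began 92 bases before the start used for the window of Txnrd1, 57 before that of G6pdx, 134 before that of Gclm and 121 before that of Gsta3. That start can lie past the first base of the RefSeq gene. The windows of Gclm and Gsta3 end at 122245556 and 21240584, and the genes begin at 122245487 and 21240565. The window of Taldo1 holds no match to these letters. Mgst1 (GCACGGTCA, in 1 of its 2 windows), Prdx1 and Pir (both GCTGAGTCA) and Nfe2l2 itself (TGACTCCGC) also held the core, so that it was present in 8 of the 32 genes (25.0%), against 11.5% of all 27025 genes with a window, with both strands searched. The related AP-1 motif TGANTCA, which overlapped the core in Prdx1 and Pir, was present in 6 of the 32 genes (18.8%), against 7.82% of all genes with a window. Mgst1, Prdx1, Pir and Nfe2l2 were not 2-fold higher after lenvatinib in both lines. Blvrb, Srxn1 and Osgin1, among others, were, with no core in their windows. A match is a description of letters and no measure of binding.

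Library totals were 49.0 to 61.0 megacounts (M), levels are given as counts per megacount of the library total (CPM), and 3 counts in a library were taken as the floor. The hepatocyte genes Alb, Serpina1a and Cps1 had 0 counts in all 8 libraries, and Ttr, Apoa1 and Tat of the same list had at most 78 counts in each. The seventh gene of that list, Hnf4a, which encodes a transcription factor of hepatocytes and other epithelia, had 90.95, 129, 91.02 and 149 CPM in the 4 parental libraries. The bile duct keratin gene Krt19 had 2789.8, 3181, 2909 and 3079 CPM there. Of the 6 bile duct genes listed, 4 had at least 10 CPM in all 8 libraries, the exceptions being Sox9 and Spp1. The hepatocyte list thus rests on Hnf4a, with its genes for secreted proteins and the urea cycle at or near 0. Of the 7 macrophage genes listed, Ptprc, Adgre1, Clec4f, Cd163 and Marco also had 0 counts in all 8 libraries. Cd68 of that list had at least 10 CPM in every library, 23.7 to 58.6 CPM with TMM scaling of the totals. Csf1r had at most 1.37 CPM on that scale. For red blood cells, 6 of 6 genes had at most 3 counts in each library. Levels of 34 of the 37 genes were at least 10 CPM in every library, the exceptions being Gstk1, Mgst2 and Pir.

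Lenvatinib-treated organoids carried more mRNA of the system as a whole. The 37 genes together held 10792, 10017, 10395 and 10649 CPM in the 4 parental libraries, 23588 and 25321 CPM after lenvatinib and 8580.3 and 15283 CPM in the resistant cultures. The lenvatinib sums lay above every parental sum, whereas the resistant sums lay on either side of the parental ones. Gclc alone made up 5141 and 6085 CPM of the lenvatinib sums, against 509, 484, 625 and 656 CPM of the parental ones. Of the 37 genes, 29 were higher after lenvatinib in both lines (41.4% of all 17038 tested genes were), and 18 were at least 2-fold higher in both (5.32% of all). Only Hmox1 and Taldo1 passed the test across all genes (2 of 37, 5.41%), against 5.78% of all tested genes in either direction, 1.70% upward and 4.08% downward. For 26 of the 37 genes both lenvatinib libraries lay above both parental ones of the same lines (36.1% of all genes), and for 3, Gsta4, Mgst2 and Gpx1, below them (36.0% of all). At an unadjusted p under 0.05, 16 of the 37 genes were higher (14.6% of all) and 3 were lower (17.2% of all).

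**Figure D1:**
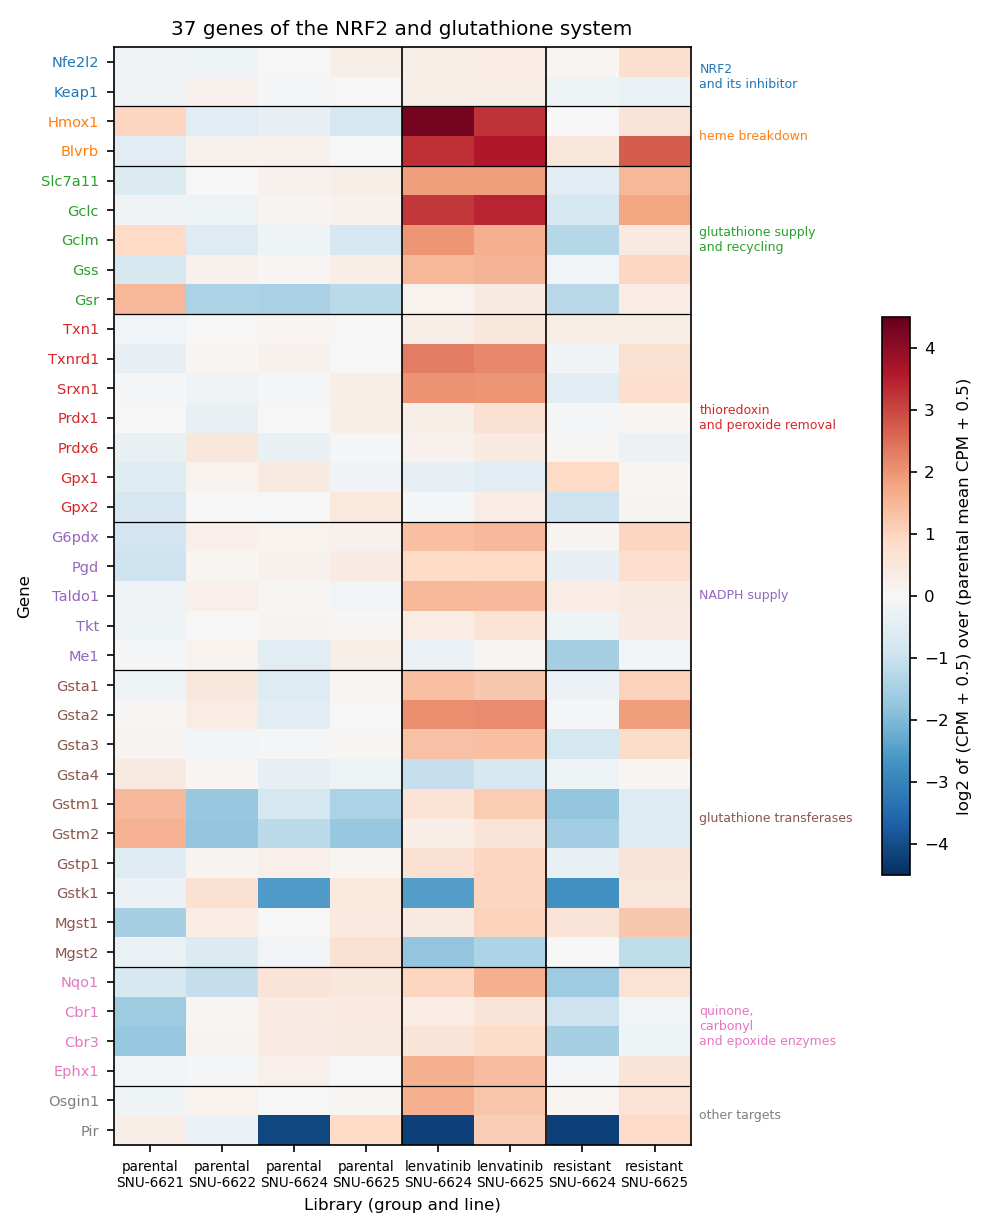
Log2 ratio of CPM (with 0.5 CPM added) to the mean of the 4 parental libraries, for the 37 genes (rows, grouped by role) in the 8 libraries (columns). Hmox1, Blvrb and Gclc are the most raised in both lenvatinib columns, the resistant SNU-6625 column is higher than the resistant SNU-6624 column for most rows, and parental SNU-6621 is high for Gsr, Gstm1 and Gstm2.

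The test was edgeR's quasi-likelihood F test on the 6 libraries of the 2 treated lines, with terms for group and line, and genes with a Benjamini-Hochberg adjusted p under 0.05 over all 17038 genes were called. Changes are log2 fold changes with their standard error (SE). The median change was 0.58 over the 37 genes and -0.01 over all tested genes, and within the lines the median over the 37 was 0.67 and 1.01. Both calls were lost when any 1 of the parental or lenvatinib libraries was left out, and without either resistant library 26 of the 37 genes were called, 23 up and 3 down, where 43.3% and 43.7% of all genes were called. No gene at all was called after lenvatinib in the fits without a parental or lenvatinib library. The loss of both calls was thus not particular to Hmox1 and Taldo1. On leaving out 1 library, the change after lenvatinib ran from 3.62 to 4.91 for Hmox1 and from 1.3 to 1.6 for Taldo1. In bulk RNA, a change in the number of cells of one kind and a change in RNA per cell cannot be told apart. The 5 genes of dividing cells summed to 162, 200.4, 475 and 538 CPM in the 4 parental lines and 28.7 and 36.6 CPM in the lenvatinib libraries. Krt19 had 267 and 405 CPM after lenvatinib. The 6 bile duct genes were not alike, with changes of -3.25 for Krt19, -3.095 for Spp1, -1.44 for Krt7, -0.63 for Prom1, -0.235 for Epcam and 0.56 for Sox9. Of these, Krt19 and Spp1 were called down, where 4.08% of all genes were. Hnf4a fell to 5.59 and 10.9 CPM after lenvatinib, by 3.97 in log2 (SE 0.21, edgeR adjusted p = 0.0275), and had 109 and 121 CPM in the resistant cultures. The part of these shifts in the changes of the 37 genes was not tested.

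The 2 genes grouped as heme breakdown showed the steepest difference. Hmox1 (gene 15368, chr8:75093618-75100593, GRCm38.p6), whose product heme oxygenase opens the heme ring, had 75.9, 27.8, 30.3 and 22.1 CPM in the 4 parental libraries and 787 and 377 CPM after lenvatinib. The groups did not overlap, and Hmox1 rose by 4.38 (SE 0.57, edgeR adjusted p = 0.0398), with 4.64 and 3.98 in the lines. Blvrb, grouped here with Hmox1, encodes biliverdin reductase B. Its level was 20.6, 33.9, 33.9 and 29.1 CPM in the parental libraries and 293 and 362 CPM in the lenvatinib libraries, again without overlap. Its change of 3.23 (SE 0.73, edgeR adjusted p = 0.0719) was not called. Blvra, which encodes biliverdin reductase A and was listed with the other NRF2 targets, differed by 0.12 (SE 0.33, edgeR adjusted p = 0.825). Its change was 0.30 and -0.02 in the lines, so the difference of this group did not extend to Blvra.

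**Figure D2:**
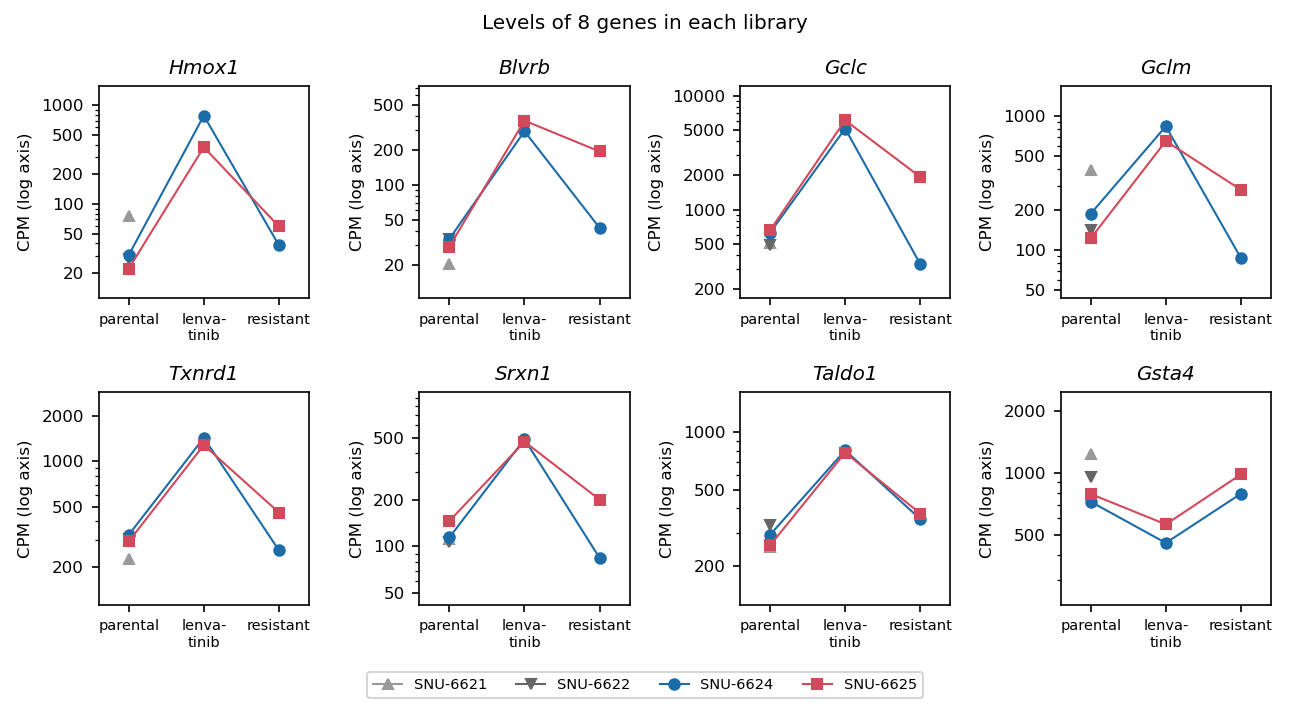
Levels in CPM (log axes) of 8 genes in every library, 1 panel per gene, with lines joining the parental, lenvatinib and resistant libraries of SNU-6624 and of SNU-6625. In 7 panels both lenvatinib points lie above all parental points, Gsta4 goes the other way, and Gclc, Gclm, Txnrd1 and Srxn1 split the resistant libraries to either side of their parental ones.

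The 5 genes that supply and recycle glutathione were all at least 2-fold higher after lenvatinib in both lines, and none passed the test. Gclc and Gclm encode the catalytic and modifier subunits of glutamate-cysteine ligase, the rate-limiting enzyme of glutathione synthesis. Gclc had 509, 484, 625 and 656 CPM in the 4 parental libraries and 5141 and 6085 CPM in the lenvatinib libraries. Gclm, whose promoter site is printed above, had 399, 141, 187 and 122 CPM and 841 and 652 CPM. Both lenvatinib libraries lay above all 4 parental ones for both subunits, and Gclc, named here after its values were seen, differed by 3.03 (SE 0.81, edgeR adjusted p = 0.0931). Slc7a11, the cystine transporter subunit xCT, had 92.8, 144, 161 and 171 CPM in parental and 531 and 528 CPM in lenvatinib libraries. Gss, glutathione synthetase, had 107, 201, 183 and 220.0 CPM and 497 and 509 CPM. Neither overlapped between the groups, although 18.6% of the exon bases of Gss lie opposite exons of other genes and the strand setting of the counts is not given. Gsr, the reductase that returns oxidised glutathione to its reduced form, had 1251, 165, 162 and 190.1 CPM and 489.9 and 587 CPM. Gsr was higher after lenvatinib in both treated lines but highest of all in parental SNU-6621.

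Among the 7 genes of thioredoxin and peroxide removal, the reductase and the sulfiredoxin were at least 2-fold higher in both lines and the other 5 were not. Txnrd1, thioredoxin reductase, had 224, 305, 325 and 294 CPM in parental and 1428 and 1279.7 CPM in lenvatinib libraries, a change of 2.05 (SE 0.40, edgeR adjusted p = 0.0606) that was not called. Srxn1 encodes sulfiredoxin, which repairs over-oxidised peroxiredoxins, and had 112, 106, 114 and 146 CPM and 489 and 472 CPM, with 1.85 (SE 0.43, edgeR adjusted p = 0.0737), not called. The lenvatinib libraries lay above all 4 parental ones for both genes. The peroxiredoxin genes Prdx1 and Prdx6 had 699, 559, 716 and 840.3 CPM and 271, 482, 268 and 329 CPM in the parental libraries, against 844 and 1133 CPM and 390.5 and 446 CPM after lenvatinib. Txn1, thioredoxin itself, had 179, 200.2, 208 and 200.1 CPM and 239 and 279 CPM. Txn1 was above all 4 parental libraries, and Prdx1 and Prdx6 were higher in each treated line than in its own parental culture, with Prdx6 highest in parental SNU-6622. The glutathione peroxidase gene Gpx1 had 165, 265, 315 and 215 CPM in parental and 186 and 174 CPM in lenvatinib libraries, and Gpx2 had 58.2, 98.7, 99.98 and 135 CPM and 92.6 and 125 CPM. Of the 50-base windows of Gpx2 transcripts, 18.9% are shared with Gpx2-ps1. Both peroxidase genes were lower in each treated line than in its parental culture, and neither was called.

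NADPH supply divided between the pentose phosphate pathway and malic enzyme. Taldo1 (gene 21351, chr7:141392160-141402976), transaldolase of the non-oxidative branch of that pathway, had 253, 328, 292 and 257 CPM in parental and 802 and 781 CPM in lenvatinib libraries. The groups did not overlap, and Taldo1 rose by 1.45 (SE 0.23, edgeR adjusted p = 0.0460), with 1.40 and 1.49 in the lines, while 10.7% of the 50-base windows of its transcripts are shared with other genes, mostly Gm17823. G6pdx and Pgd encode the NADPH-producing dehydrogenases of the same pathway. G6pdx had 82.2, 174, 167 and 170.2 CPM and 379.6 and 406 CPM, and Pgd had 148, 299.7, 323 and 366 CPM and 533 and 530.1 CPM. Tkt, transketolase, had 1261, 1408, 1572 and 1485 CPM and 1817 and 2239 CPM. Those 3 genes were above all 4 parental libraries after lenvatinib and were not called. For G6pdx, 13.6% of the exon bases lie opposite exons of Ikbkg and 7.5% of the windows are shared with G6pd2. Me1, the cytosolic malic enzyme, had 137, 160.3, 100.4 and 172 CPM and 119.8 and 151 CPM, higher in SNU-6624 and lower in SNU-6625. Of the windows of Me1, 24.6% are shared with other genes, mostly Gm7049.

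The 10 glutathione transferase genes differed from one another. Gsta1, Gsta2 and Gsta3, alpha-class enzymes that conjugate electrophiles to glutathione, were each at least 2-fold higher in both lines. Gsta1 had 228, 387, 178 and 285 CPM in parental and 690.3 and 633 CPM in lenvatinib libraries. Gsta2 had 41.4, 50.3, 27.8 and 38.97 CPM and 172 and 174 CPM, and Gsta3 had 208, 174, 182 and 199 CPM and 478 and 492 CPM. Reads of the first pair are uncertain, since 89.7% of the 50-base windows of Gsta1 and 47.4% of those of Gsta2 also occur in other genes. Gsta4, the alpha-class enzyme that acts on the lipid peroxidation product 4-hydroxynonenal, ran the other way, with 1234, 960.2, 724 and 790.0 CPM in parental and 456 and 561 CPM in lenvatinib libraries. Both lenvatinib libraries lay below all 4 parental ones, and Gsta4 was not called.

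Gstm1 and Gstm2, of the mu class, were higher after lenvatinib in both treated lines but below the level of parental SNU-6621. Gstm1 had 753, 83.3, 158 and 101 CPM in the parental and 424 and 605 CPM in the lenvatinib libraries, and Gstm2 had 447, 45.1, 66.4 and 45.5 CPM and 187 and 228 CPM. Of the windows of Gstm1, 19.9% are shared with other genes, mostly Gstm2-ps1. Gstp1, of the pi class, had 331, 535, 573 and 525 CPM and 789 and 968 CPM, with 51.0% of its windows shared, mostly with its neighbour Gstp2. Of the microsomal transferase genes, Mgst1 had 48.4, 174, 139.9 and 188 CPM and 181 and 283 CPM. Mgst2 was low, with 46, 36, 64 and 109 counts in the parental libraries and 0 and 8 counts after lenvatinib, the first of these below the floor of 3. Gstk1, the mitochondrial and peroxisomal transferase, had 4.38, 9.003, 0.513 and 7.71 CPM and 0.548 and 11.01 CPM, low in SNU-6624 and higher in SNU-6625 with and without lenvatinib.

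Among enzymes that act on quinones, carbonyls and epoxides, only Ephx1 was at least 2-fold higher in both lines. Ephx1, microsomal epoxide hydrolase, had 720.2, 734, 912 and 782 CPM in parental and 2390.4 and 2071 CPM in lenvatinib libraries. Nqo1, the quinone reductase often used as a readout of NRF2, had 57.7, 44.6, 143 and 133 CPM and 184 and 289 CPM. Its treated levels lay above all parental ones, by a log2 change of 0.31 and 1.01 in SNU-6624 and SNU-6625. The carbonyl reductase genes Cbr1 and Cbr3 had 139, 431, 539 and 568 CPM and 91.3, 322, 384 and 394 CPM in the parental libraries, and 523 and 623 CPM and 447 and 529 CPM after lenvatinib. Osgin1, a growth inhibitor gene induced by oxidative stress, had 88.9, 113, 101 and 106 CPM in parental and 309 and 241 CPM in lenvatinib libraries, with 1.35 (SE 0.33, edgeR adjusted p = 0.0805), not called. Pir, the iron-binding protein pirin, was below the floor in SNU-6624, with 2, 0 and 0 counts in its parental, lenvatinib and resistant libraries, against 813, 1042 and 978 counts in SNU-6625.

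Neither regulator differed after lenvatinib by as much as the median of the 37 genes in either line. Nfe2l2 had 256, 252, 292 and 348 CPM in the parental libraries, 343 and 365 CPM after lenvatinib and 307 and 475 CPM in the resistant libraries. Keap1 had 86.9, 110.0, 91.6 and 95.9 CPM, 116 and 115 CPM and 83.5 and 78.2 CPM in the same groups. For Keap1, 10.9% of the exon bases lie opposite exons of Gm16754. After lenvatinib, Nfe2l2 differed by 0.18 and -0.04 and Keap1 by 0.29 and 0.15 in SNU-6624 and SNU-6625 on the log2 scale, and neither was called, the sign of Nfe2l2 in SNU-6625 turning with library size alone as scaling. These are mRNA levels and do not measure NRF2 protein, whose amount is set mainly by its degradation.

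In the resistant cultures the 2 lines differed in direction, a difference that 1 library per line and state does not allow to be tested. Against its parental library, the median change over the 37 genes was -0.28 in line SNU-6624 and 0.69 in line SNU-6625, beside 0.00 and -0.03 over all genes. Of the 37 genes, 20 differed from parental in opposite directions in the lines (36.6% of all genes did), of which 18 were lower in SNU-6624 and higher in SNU-6625 (17.5% of all genes) and 2, Mgst2 and Prdx6, the reverse (19.1% of all). With library size alone as scaling, 16 were lower in SNU-6624 and higher in SNU-6625, since Prdx1 and Pir were then lower in both. The share of all genes is not given on that scale. No gene of the 37 was called by edgeR, and none of the 17038 genes was (0%). At an unadjusted p under 0.05, 2 of the 37 passed, Mgst1 and Cbr1, against 15.9% of all genes, DESeq2 called 2 of the 37, Mgst1 and Blvrb, against 4.36% of all genes, and limma-voom called 0. Without resistant SNU-6624, 20 of the 37 genes were called up, against 16.0% of all genes, and without resistant SNU-6625, 6 were called down, against 1.86% of all. In these fits the lone resistant library is assumed to vary like the other groups. Dividing-cell genes summed to 121 and 5.69 CPM in the resistant cultures, and their part in the split was not tested.

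**Figure D3:**
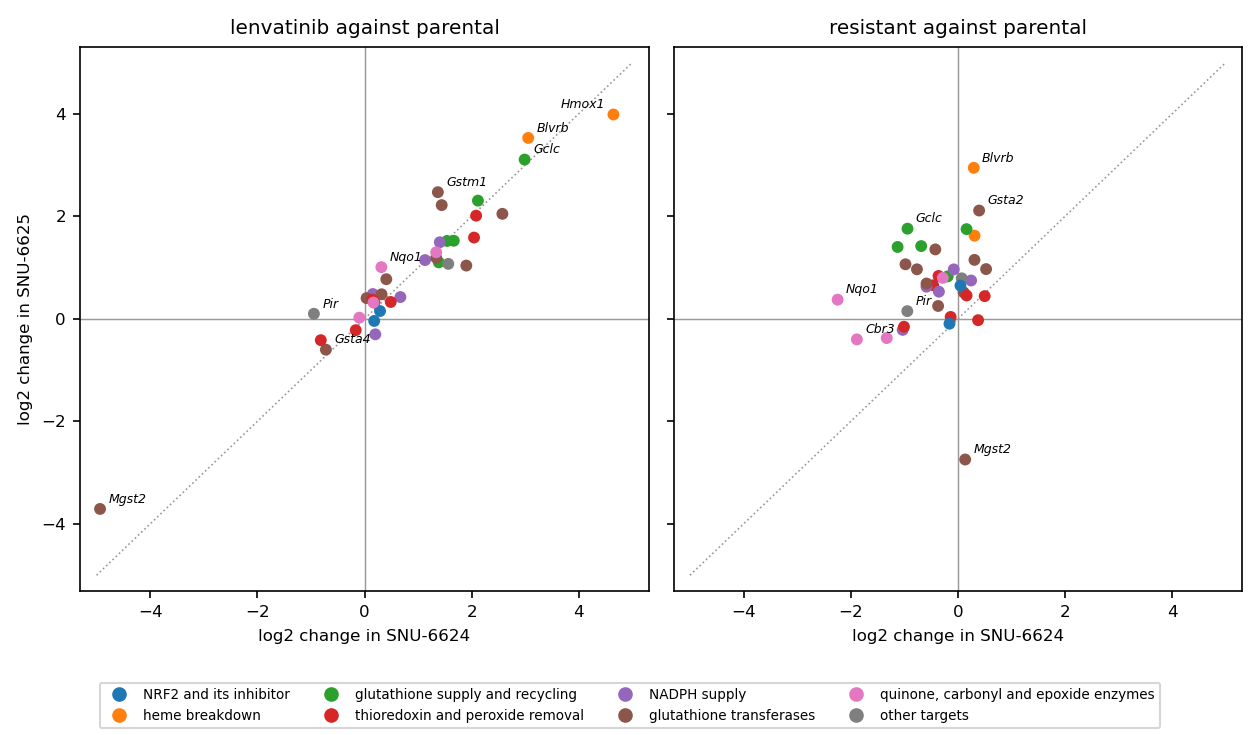
Log2 change in SNU-6625 (vertical) against SNU-6624 (horizontal) of TMM-scaled CPM with a prior count of 2 for the 37 genes, coloured by role, after lenvatinib (left) and in resistant cultures (right), with the dotted line marking equal change. After lenvatinib the points lie along the line, and in the resistant panel 18 points lie to the left of 0 and above it. Each point compares single libraries, both panels share the parental libraries, and Mgst2 and Pir rest on a few counts in some of them.

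For 7 genes the change was at least 0.5 on the log2 scale in each line and of opposite sign (6.37% of all genes). Of those 7, the glutathione supply genes Gclc, Gclm and Slc7a11 differed most between the lines. Gclc had 625 and 656 CPM in the parental libraries and 331 and 1931 CPM in their resistant cultures. Gclm had 187 and 122 CPM and 86.96 and 282 CPM in the same order. Slc7a11 had 161 and 171 CPM and 102 and 397 CPM. For these 3 genes the resistant SNU-6624 library was below and the resistant SNU-6625 library above its parental one. Gss had 183 and 220.0 CPM and 163 and 340.0 CPM, and Gsr had 162 and 190.1 CPM and 185 and 556 CPM. Gsr was the one gene of this role that was higher in both resistant cultures.

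For 7 of the 37 genes both resistant libraries lay above both parental ones (23.0% of all genes), and for 3, Keap1, Cbr1 and Cbr3, below them (24.6% of all). Heme breakdown genes were among the 7. Hmox1 had 30.3 and 22.1 CPM in the parental libraries and 38.2 and 59.2 CPM in the resistant cultures, a change of 0.31 and 1.62 in the lines. Blvrb had 33.9 and 29.1 CPM and 42.3 and 195 CPM, with 1.76 (SE 0.73, edgeR adjusted p = 0.332), and both resistant libraries lay above both parental ones. Among transferases, Mgst1 had 139.9 and 188 CPM and 205 and 321 CPM, again without overlap between these libraries, with 0.75 (SE 0.19, edgeR adjusted p = 0.250). Gsta2 had 27.8 and 38.97 CPM and 37.2 and 147 CPM, with 1.39 (SE 0.59, edgeR adjusted p = 0.337). Most of the difference in Blvrb and Gsta2 lay in SNU-6625, whereas Mgst1 was higher by 0.53 and 0.97 in the 2 lines.

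Most of the remaining transferase genes were lower in one line and higher in the other. Gstm1 and Gstm2 had 81.5 and 184 CPM and 50.4 and 101 CPM in the resistant cultures, against 158 and 101 CPM and 66.4 and 45.5 CPM in their parental libraries. Gsta3 and Gstp1 had 109 and 339 CPM and 388 and 738 CPM, against 182 and 199 CPM and 573 and 525 CPM. All 4 genes were lower in resistant SNU-6624 and higher in resistant SNU-6625. Gsta1 and Gsta4 had 225 and 552 CPM and 792 and 984 CPM, above the parental library of each line. Gstk1 had 0.396 and 7.996 CPM, and Mgst2 had 60 and 16 counts.

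Carbonyl reductase genes were lower in both resistant cultures. Cbr1 had 539 and 568 CPM in the parental libraries and 218 and 382 CPM in the resistant cultures, with -0.83 (SE 0.31, edgeR adjusted p = 0.311). Cbr3 had 384 and 394 CPM and 106 and 259.8 CPM, with -1.09 (SE 0.43, edgeR adjusted p = 0.322). For both genes the resistant libraries lay below the parental ones without overlap, and neither was called. Nqo1 had 143 and 133 CPM and 30.6 and 150.3 CPM, a log2 change of -2.25 and 0.37 in SNU-6624 and SNU-6625. Nqo1 in resistant SNU-6624 was thus the lowest of the 8 libraries, while Ephx1, at 763 and 1185 CPM, was below its parental level in SNU-6624 and above it in SNU-6625.

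For peroxide removal, Gpx1 had 315 and 215 CPM in the parental libraries and 453 and 255 CPM in the resistant cultures, with 0.47 (SE 0.20, edgeR adjusted p = 0.340). Txnrd1 and Srxn1 had 257 and 457 CPM and 84.4 and 199.9 CPM in the resistant cultures, which were lower and higher than parental in that order. Txn1, Prdx1, Prdx6 and Gpx2 had 236 and 239, 663 and 751, 354 and 281 and 50.6 and 105 CPM. Of these, Txn1 was above and Gpx2 below its parental level in both lines. In NADPH supply, Pgd had 218 and 492 CPM in the resistant cultures, G6pdx 161 and 289 CPM and Tkt 1249.6 and 1867 CPM. Those 3 again were lower than parental in SNU-6624 and higher in SNU-6625. Taldo1, at 352 and 376 CPM, was above its parental level in both, and Me1, at 49.9 and 129 CPM, was below it in both. Osgin1 had 107 and 159.8 CPM, above parental in both lines.

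Between the resistant and the lenvatinib-treated cultures, Hmox1 was the gene that passed the test. This comparison shares the lenvatinib and resistant libraries with the others above, so the 3 sets of changes are not independent. Hmox1 fell from 787 and 377 CPM after lenvatinib to 38.2 and 59.2 CPM in the resistant cultures, with -3.31 (SE 0.55, edgeR adjusted p = 0.0470) and -4.33 and -2.36 in the lines. It was the only call among the 37 genes (2.70%), against 6.23% of all genes in either direction and 2.08% downward. For 20 of the 37 genes both resistant libraries lay below both lenvatinib ones (29.3% of all genes). For 3, Gpx1, Gsta4 and Mgst2, they lay above them (27.8% of all). With library size alone as scaling, 25 of the 37 lay below, and the share of all genes is not given on that scale. On it, 35.6% of all genes were higher in resistant than in lenvatinib-treated SNU-6625, against 47.5% with TMM scaling. The median change was -0.74 over the 37 genes and 0.02 over all tested genes, and it was -1.26 and -0.23 within the lines. Fits that left out 1 parental or lenvatinib library called hardly any or none of all genes, so they do not single out Hmox1. On leaving out 1 library, its change ran from -4.19 to -2.52. The call of Hmox1 was lost when any 1 parental or lenvatinib library was left out, and without resistant SNU-6624 or SNU-6625, 12 and 28 of the 37 genes were called, against 34.9% and 33.0% of all genes.

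The next smallest p-values of that comparison, none of them called, belonged to genes in both directions. The peroxidase gene Gpx1, at 186 and 174 CPM after lenvatinib and 453 and 255 CPM in resistant cultures, differed by 1.08 (SE 0.20, edgeR adjusted p = 0.0556). Gsta4 differed by 0.98 (SE 0.23, edgeR adjusted p = 0.0744), so that both genes were lower under lenvatinib than in the resistant cultures. Txnrd1 differed by -1.77 (SE 0.40, edgeR adjusted p = 0.0723). Taldo1 differed by -0.95 (SE 0.23, edgeR adjusted p = 0.0773), and Srxn1 by -1.69 (SE 0.43, edgeR adjusted p = 0.0856). Those last 3 genes were higher under lenvatinib. Gclc, Txnrd1, Gstm1 and Hmox1 were at least 2-fold lower in the resistant culture of both lines (4 of 37, 10.8%, against 4.80% of all genes).

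The parental lines differed before any treatment. Parental SNU-6621 had 1251 CPM of Gsr, against 162 to 190.1 CPM in the other 3 lines. Gstm1 had 753, 83.3, 158 and 101 CPM and Gstm2 447, 45.1, 66.4 and 45.5 CPM in the 4 lines. G6pdx, at 82.2, 174, 167 and 170.2 CPM, was the 1 gene for which SNU-6621 stood apart on the low side by the gap used below. Other genes were also lowest in SNU-6621, among them Mgst1, Pgd, Slc7a11, Gss, Cbr1 and Cbr3. Hmox1 and Gclm were highest there. Gclc, at 509, 484, 625 and 656 CPM, lay in SNU-6621 between its levels in the other lines, and Nqo1 was higher in SNU-6624 and SNU-6625 than in the other lines. SNU-6621 stood apart from the other 3 lines by its gap to the nearest for 5 of the 37 genes, against 7.65% of all genes (any line did for 11.0%). SNU-6621 and SNU-6622 entered only the alternative fit to all 8 libraries.

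**Figure D4:**
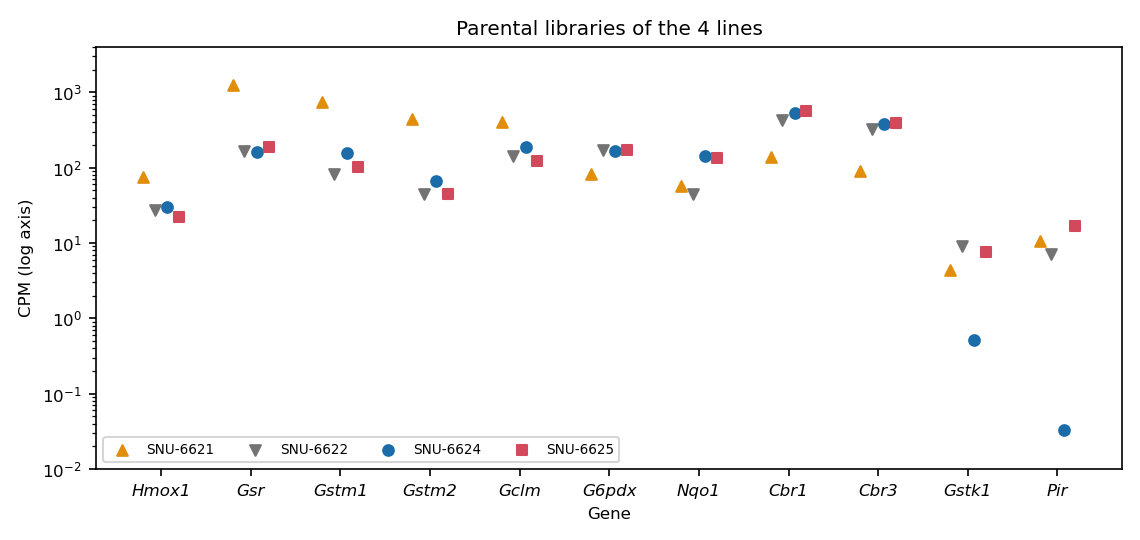
CPM (log axis) of 11 genes in the parental library of each line, 1 point per line, shown because 1 or more lines differ from the rest. SNU-6621 is high for Hmox1, Gsr, Gstm1, Gstm2 and Gclm and low for G6pdx, Cbr1 and Cbr3, and SNU-6624 is low for Gstk1 and Pir, where its Pir value rests on 2 counts.

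Per kilobase of exon (GENCODE vM21), levels in the 4 parental lines spanned a wide range. Gsta4 was highest at 732 ± 179.6 CPM per kb (mean ± SD, n = 4 lines), followed by Ephx1 at 404 ± 44.8, Gstp1 at 317 ± 70.2, Gsta1 at 282 ± 93.9, Cbr3 at 237 ± 113 and Prdx1 at 231 ± 37.8 CPM per kb. Levels from Ephx1 to Prdx1 overlap with their neighbours in this order within 1 SD. Mgst2 was lowest at 0.323 ± 0.192 CPM per kb, then Pir at 1.55 ± 1.25 and Gstk1 at 3.68 ± 2.58. The cystine transporter gene Slc7a11, at 10.2 ± 2.49 CPM per kb, and Hmox1, at 22.3 ± 14.2, were in the low part of the range, Keap1 had 20.5 ± 2.13 and Nfe2l2 75.6 ± 11.8 CPM per kb.

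Other genes of the pathway, listed by function, held a few calls. Among 12 NRF2 partners and regulators, 1 was called up after lenvatinib, where 1.70% of all tested genes were. That gene, Btrc, which encodes the ubiquitin ligase adaptor beta-TrCP and rose from 13.6 and 13.6 CPM in the parental libraries of these lines to 28.1 and 29.5 CPM, by 0.996 (SE 0.17, edgeR adjusted p = 0.0494). Of 18 other NRF2 targets, 17 were tested and none was called after lenvatinib. Their median change was 0.12, with 0.12 and 0.61 in the lines, beside -0.01 over all genes. Of the 17, 9 were higher in both lines (41.4% of all genes), 5 lower in both (41.9%) and 3 opposite (15.5%). The ferritin light chain gene Ftl1, whose reads may be shared with pseudogenes, had 2496 and 2038 CPM in the parental libraries of these lines, 9215 and 8265 CPM after lenvatinib and 1586 and 1634 CPM in the resistant cultures. It differed by 1.87 (SE 0.35, edgeR adjusted p = 0.0559) after lenvatinib, not called, and fell by 2.26 in log2 (SE 0.35, edgeR adjusted p = 0.0435) from the lenvatinib to the resistant cultures, the 1 call of that list there, against 2.08% of all genes called down. Slc3a2, the partner chain of the cystine transporter, had 257 and 203 CPM and 793 and 745 CPM, with 1.66 (SE 0.37, edgeR adjusted p = 0.0723), not called.

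Of 34 other glutathione genes, 30 were tested, and 2 rose and 1 fell after lenvatinib, against 1.70% and 4.08% of all tested genes. Chac1, an enzyme that degrades glutathione and a target of the stress factor ATF4, had 15.4 and 9.61 CPM in the parental libraries and 102 and 75.5 CPM after lenvatinib, a rise of 2.75 (SE 0.41, edgeR adjusted p = 0.0437). Gstm4, a mu-class transferase gene, went from 12.5 and 13.8 to 29.5 and 36.3 CPM and rose by 1.24 (SE 0.18, edgeR adjusted p = 0.0429). Glrx3, a glutaredoxin that handles iron-sulfur clusters, went from 89.2 and 102 to 49.1 and 57.8 CPM and fell by 0.93 in log2 (SE 0.15, edgeR adjusted p = 0.0467). The list thus held calls in both directions, and its median change of 0.08 was near that of all genes. From the lenvatinib to the resistant cultures, Gstm4 fell by 1.55 in log2 (SE 0.18, edgeR adjusted p = 0.0335), and Glrx3 rose by 0.96 (SE 0.15, edgeR adjusted p = 0.0440) and Mgst3 by 1.21 (SE 0.20, edgeR adjusted p = 0.0461), where 4.14% of all genes were called up.

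Of 10 other NADPH supply genes, 3 were called down after lenvatinib and none up, against 4.08% and 1.70% of all tested genes. Idh1, the cytosolic isocitrate dehydrogenase, fell from 179 and 294 CPM in the parental libraries of these lines to 53.9 and 87.4 CPM, by 1.82 in log2 (SE 0.25, edgeR adjusted p = 0.0419). Me3, a mitochondrial malic enzyme, went from 2.70 and 3.45 to 0.371 and 0.460 CPM and fell by 2.96 in log2 (SE 0.37, edgeR adjusted p = 0.0389). Pgls, which encodes the lactonase between G6pdx and Pgd in the pentose phosphate pathway, went from 70.1 and 81.6 to 39.7 and 45.1 CPM and fell by 0.92 in log2 (SE 0.15, edgeR adjusted p = 0.0476). Pgls was thus lower in both treated lines, in which G6pdx and Pgd were higher. Me3 was also called up from the lenvatinib to the resistant cultures, by 3.14 (SE 0.37, edgeR adjusted p = 0.0343). Among 14 other thioredoxin and antioxidant genes, 13 were tested and none was called in any comparison, with the smallest p after lenvatinib for the methionine sulfoxide reductase gene Msrb1, 0.72 (SE 0.18, edgeR adjusted p = 0.0818), and catalase, Cat, 1.28 (SE 0.34, edgeR adjusted p = 0.0923). From the lenvatinib to the resistant cultures the smallest p in that list was that of the peroxiredoxin gene Prdx5, 0.79 (SE 0.16, edgeR adjusted p = 0.0606), and of the thioredoxin inhibitor gene Txnip, -1.02 (SE 0.23, edgeR adjusted p = 0.0716). Among the partners and regulators, where none was called in that comparison either, it was that of Trim16, 1.41 (SE 0.35, edgeR adjusted p = 0.0814), and of the small MAF gene Maff, 0.96 (SE 0.26, edgeR adjusted p = 0.0954).

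Between resistant and parental cultures none of these lists held a call by edgeR. The smallest p among the partners and regulators was that of the small MAF gene Mafk, 1.25 (SE 0.24, edgeR adjusted p = 0.247), with 86.9 and 76.2 CPM in the parental and 173 and 188 CPM in the resistant cultures, and then of Sesn2, 0.94 (SE 0.23, edgeR adjusted p = 0.248). Among other glutathione genes it was that of Gstm5, 0.97 (SE 0.19, edgeR adjusted p = 0.247), and of Chac1, 1.53 (SE 0.40, edgeR adjusted p = 0.252). The export pump gene Abcc4, 1.93 (SE 0.75, edgeR adjusted p = 0.320), and the aldehyde dehydrogenase gene Aldh3a1, 1.15 (SE 0.51, edgeR adjusted p = 0.353), had the smallest p among other NRF2 targets. In the last 2 lists it was Msrb1, 0.50 (SE 0.18, edgeR adjusted p = 0.302), and Prdx3, -0.39 (SE 0.15, edgeR adjusted p = 0.316), and Me2, 0.51 (SE 0.16, edgeR adjusted p = 0.281), and Rpia, 0.53 (SE 0.18, edgeR adjusted p = 0.288). Medians over the 17 other NRF2 targets tested were -0.05 and 0.93 in the resistant cultures, beside 0.00 and -0.03 over all genes.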

How the data were processed

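The deposited values are read counts, whole numbers for each gene under its NCBI identifier. The submitters' processing notes name HISAT2 2.1.0, Bowtie2 2.3.4.1, StringTie 2.1.3b, Trimmomatic 0.38 and FastQC 0.11.7, and build mm10. How reads were counted and with which strand setting is not given in the sources used here. Per the labels' protocols, RNA was taken with Trizol and RNeasy columns and libraries with a stranded mRNA kit.

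CPM is the count over the library total, and 3 counts were 0.0492 to 0.0612 CPM, which covers counting error only. The test was edgeR 4.0.16 (R 4.3.3, quasi-likelihood F test, TMM scaling, its own filter on low counts, 17038 genes kept) with 2 residual degrees of freedom, 2.53 prior ones and a biological coefficient of variation of 0.336. SE is the log2 change over the square root of F. Line was a term because both lines enter each group: the same-line libraries deviated together from the means of their groups, with correlations across genes of 0.504 (parental and lenvatinib), 0.288 (parental and resistant) and 0.290 (lenvatinib and resistant). Changes within a line are log2 ratios of TMM-scaled CPM with a prior count of 2. The p-values measure only the spread between these cultures. No 2 libraries held identical values. The fit was also run on simulated counts with known changes. Those counts had no differences between lines and the same spread for every gene, unlike these data. The run therefore does not measure how the fit performs on these data.

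The genes and lists were chosen with earlier results of these data known. Changes with SE and p are given for called genes among the 37, else for the smallest p until 6 were named, and for up to 4 called genes of each other list, or the 2 smallest p. Alternatives were no term for line, a fit to all 8 libraries, only the 4 libraries compared, DESeq2 1.42.0, limma-voom (limma 3.58.1), other scaling, other filters and each library left out. Promoters and positions are from RefSeq (GRCm38.p6), exon lengths from GENCODE vM21.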

Additional observations from a re-analysis of the deposited data

Results flagged for a closer look

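Among the 4 parental lines, SNU-6621 stood apart for 5 of the 37 genes (its gap to the nearest line, as a share of the range, passed Dixon's limit). The gap was 0.974 for Gsr, 0.888 for Gstm1, 0.947 for Gstm2 and 0.848 for Hmox1, all high, and 0.921 for G6pdx, which was low. One line stood apart for 11.0% of all 17038 genes, where chance alone gives about 1 in 20 for any of the 4 lines. SNU-6621 stood apart for 7.65%, and the chance share for a single named line is smaller than 1 in 20.

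In resistant against parental cultures, 7 genes differed by at least 0.5 on the log2 scale in opposite directions in the 2 lines, against 6.37% of all genes, a limit chosen after the values were seen. The change in SNU-6625 exceeded that in SNU-6624 by 2.70 for Gclc (-0.94 in SNU-6624 and 1.76 in SNU-6625), 2.53 for Gclm (-1.13 and 1.40), 2.104 for Slc7a11 (-0.69 and 1.42), 2.04 for Gstm1 (-0.98 and 1.06), 1.73 for Gsta3 (-0.77 and 0.96), 1.27 for Gstp1 (-0.59 and 0.69) and 1.21 for Pgd (-0.59 and 0.63). With 1 library per line and state, these differences were not tested.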

How the results depend on the processing

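The number of calls depended strongly on the fit. Hmox1 and Taldo1 kept their direction after lenvatinib in every alternative, but small changes of other members, at most 0.24 in log2 size, turned under the other scalings, tools and block: with library size alone Me1 and Cbr1 after lenvatinib, Pgd, Tkt, Gstm1 and Gstp1 for resistant against parental, and Txn1 and Pir for resistant against lenvatinib. Pir also turned without the block and in limma-voom in the first and second comparisons, as did Gstk1 in the second, and Pgd there in limma-voom. Within SNU-6625, library size alone turned 9 of the 37 for resistant against lenvatinib. The median of the 37 for resistant against parental, 0.29, ran from -0.27 to 0.72 on leaving out 1 library. After lenvatinib, 985 genes were called, 2 of them among the 37. All 8 libraries gave 651 (3.45%) and 1, only the 4 libraries compared 7942 (48.3%) and 26, and DESeq2 3605 (14.5%) and 18. Limma-voom gave 1697 (9.96%) and 3, and DESeq2 size factors in edgeR 882 (5.18%) and 1. No filter gave 174 (0.700%) and 0, and the cut at 5 CPM 1365 (12.2%) and 3. Shares here and below are of the genes tested in each fit. Leaving out 1 library gave 0 to 7798 genes and 0 to 26 of the 37, with 26 without either resistant library and 0 without any other. The adjusted p of Hmox1 ran from 2.55e-17 to 0.249 over 15 alternatives and was under 0.05 in 10, and that of Taldo1 from 1.65e-06 to 0.412, under 0.05 in 8.

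Between resistant and parental cultures the main count was 0 of all and 0 of the 37. DESeq2 gave 1084 and 2, and leaving out 1 library 0 to 5819 and 0 to 20, the highest without resistant SNU-6624. Between resistant and lenvatinib cultures the main counts were 1061 and 1. All 8 libraries gave 756 (4.01%) and 0, only the 4 compared 234 (1.45%) and 0, and DESeq2 3508 (14.1%) and 12. Limma-voom gave 1587 (9.31%) and 2, DESeq2 size factors 968 (5.68%) and 0, and library size alone 1259 (7.39%) and 3. No filter gave 324 (1.30%) and 0, and 5 CPM 1660 (14.9%) and 3. Leaving out 1 library gave 0 to 6286 and 0 to 28, the latter without resistant SNU-6625. Without a parental or a lenvatinib library, none of the 37 was called, and hardly any or none of all genes were. The fits without 1 resistant library hold as many libraries and did call some of the 37, and far more of all genes. Each of these fits leaves 1 library in a group. The cause of this difference was not tested.

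The lines pair the libraries, and the fit with no replicate block gave 1053 (6.18%) and 3 after lenvatinib (adding Txnrd1). It gave 0 and 0 for resistant against parental, and 1119 (6.57%) and 1 for resistant against lenvatinib. With library size alone as scaling, 43.4% of calls after lenvatinib were up against 29.3%, and 47.3% against 66.5% for resistant against lenvatinib. It moved the median of all genes in resistant SNU-6625 to -0.23 against parental and -0.33 against lenvatinib, beside 0.49 and -0.54 over the 37 genes.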
